A study of Mus musculus with 2 samples.

Results

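The collagen genes of 2 clones of mouse induced myogenic progenitor cells were described from single-cell RNA counts. Every gene whose symbol is Col, a number, a and a number was taken, which gave 44 of the 25906 genes in the files. Induced myogenic progenitor cells are a culture in which fibroblasts have been converted to dividing muscle precursors that also give rise to muscle cells. The starting mouse embryonic fibroblasts had the genotype label MyoD-WT (here WT) or MyoD-KO (here KO). Reprogramming used overexpression of Myf6, a transcription factor of muscle, in medium with 5 µM forskolin, 5 µM RepSox and 3 µM CHIR99021, and these agents, together with 10 ng/mL bFGF, were kept in the culture medium. Forskolin activates adenylyl cyclase, RepSox inhibits a TGF-beta receptor and CHIR99021 inhibits glycogen synthase kinase. The colonies picked no longer depended on Myf6, per the series' design text. One clone of each genotype was harvested at passage 4, both carry the strain label Myod1tm1Jae, and each gave 1 library of 3' tag counts. The effects of genotype, clone and library therefore cannot be told apart, and no test between them was possible.

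Collagens are secreted or membrane-bound proteins whose chains wind around each other into a rod-like helix. Fibrillar collagens (types I, III and V among them) build the fibres of connective tissue, type IV forms the network of basement membranes such as the one that wraps each muscle fibre, and type VI forms beaded filaments between both. Multiplexins (types XV and XVIII) link basement membranes to the surrounding matrix, FACIT collagens sit on fibril surfaces, and transmembrane collagens stay in the membrane of the cell that makes them. In muscle, fibroblasts are the usual main source of fibrillar collagen, and satellite cells, the Pax7-positive stem cells, also make collagens of their niche.

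Each cell was placed in the first class whose gate it passed. Muscle-rich cells had at least 2% of their molecule counts (UMIs) in 24 sarcomere and muscle metabolism genes. Crabp1/Dcn+ cells had at least 2 UMIs of Crabp1 and Dcn together per 10000, Myog+ cells at least 3 of Myog per 10000, and Pax7+ cells at least 0.5 of Pax7 per 10000 and at least 2 UMIs. This gave 4409 WT and 3119 KO Pax7+ cells, 827 and 743 Myog+ cells, 1230 and 1160 muscle-rich cells, and 5 and 162 Crabp1/Dcn+ cells, with 845 and 598 cells in no class. With 5 cells, the WT Crabp1/Dcn+ class entered no comparison, and its values are given on their own. Between 0.5 and 2 times the threshold lay 2037 WT and 1186 KO cells for the Pax7 gate, 852 and 675 for the Myog gate, 474 and 166 for the muscle-rich gate, and 5 and 37 for the Crabp1/Dcn gate. These classes are ranges of a level, not separate cell types.

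The kept cells held a median of 35516 UMIs in WT and 40930 in KO, and 14 cell barcodes occurred in both libraries. Myod1, the gene named in the genotype, was at 162 CPM in WT and 63.0 CPM in KO, CPM being counts scaled to a total of 1000000 UMIs. The extent of the KO allele is not given in the sources used here, so a 3' tag may lie outside it and this is no check of the knockout. Markers of endothelial cells summed to at most 1.70 CPM and those of macrophages to at most 2.98 CPM in the classes of at least 50 cells. Doublet calling with Scrublet marked 2 WT and 0 KO cells, so it did not work in either library, and cell pairs may remain among the cells.

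Levels are UMIs summed over the cells of a class and given as CPM with exact 95% Poisson intervals. Ratios carry the exact interval conditional on the summed count. Both cover counting error only, not the spread between clones. A gene was counted as higher or lower where 2 levels were at least 2-fold apart and the higher was at least 10 CPM. A 3' tag count is not scaled to gene length, so values were compared between samples for a gene and not between genes.

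The summed collagens took a larger share of the RNA in KO than in WT progenitors. In the differentiating cells their sum was lower in KO, but only with the transmembrane collagen gene Col25a1 included. The second part is uncertain in muscle-rich cells. In Pax7+ cells all 44 collagens together were at 1505 CPM (1500 to 1511) in WT and 2673 CPM (2665 to 2682) in KO. In Myog+ cells, which have switched on the differentiation factor myogenin, they were at 1508 CPM in WT and 1213 CPM in KO. In muscle-rich cells they were at 1370 CPM in WT and 893 CPM in KO. The KO Crabp1/Dcn+ cells stood above all of these at 6589 CPM. Col25a1 alone was at 771 CPM in WT and 148 CPM in KO Myog+ cells, and at 747 and 213 CPM in muscle-rich cells. In both classes its difference was larger than that of the sum, so the other collagens together were higher in KO among the kept cells. In muscle-rich cells this rests in part on Col3a1, Col6a3 and Col18a1. Their CPM there fell without the cells of the highest doublet scores, by more in KO, as given below. The sum without those cells is not given here.

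The make-up of this RNA differed more than its amount. In WT Pax7+ cells, basement membrane collagens gave 32.6% of the collagen UMIs, transmembrane collagens 16.9% and fibrillar collagens 10.4%. In KO Pax7+ cells, fibrillar collagens gave 30.5%, multiplexins 23.5%, beaded filament collagens 21.7% and basement membrane collagens 11.4%. Basement membrane collagens thus made up less of the collagen RNA in KO than in WT Pax7+ cells, and fibrillar collagens more. Transmembrane collagens gave 60.0% of the collagen UMIs in WT Myog+ cells and 59.1% in WT muscle-rich cells, against 19.3% and 36.6% in KO.

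**Figure D1:**
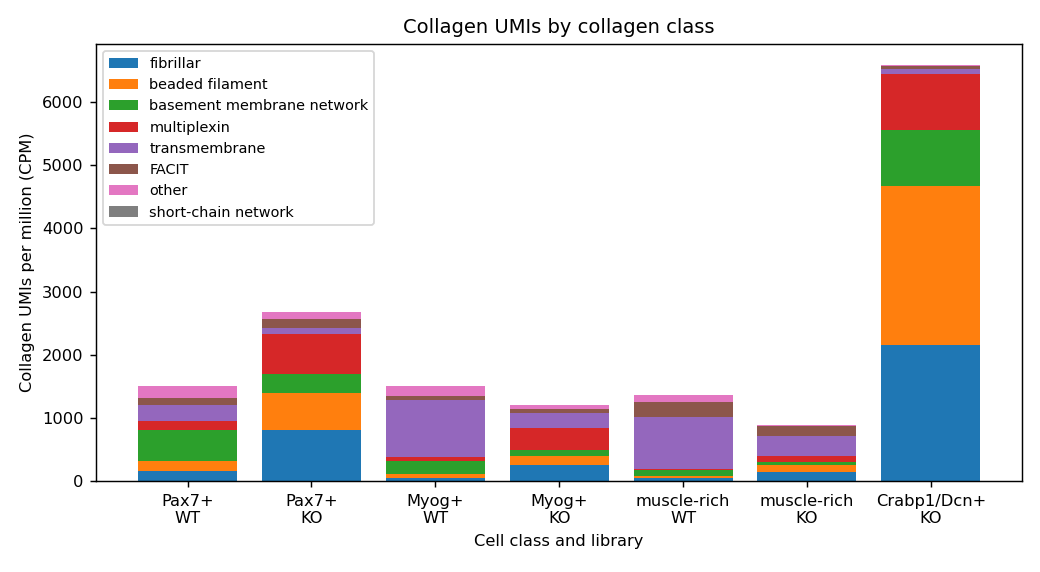
Collagen UMIs (vertical axis, CPM) in each cell class and library (horizontal axis), stacked by collagen class. WT Myog+ and muscle-rich bars are mostly transmembrane collagen, the KO Pax7+ bar is mostly fibrillar, multiplexin and beaded filament collagen, and the KO Crabp1/Dcn+ bar reaches 6589 CPM.

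Of the 44 collagens, 21 reached 10 CPM in at least 1 class of at least 50 cells and are described by name below. Of the other 23, 11 reached between 1 and 10 CPM and 12 stayed under 1 CPM. Every one of these 23 had at least 5 UMIs, and their highest levels ran from 0.0223 to 8.73 CPM.

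Type I collagen, the main collagen of fibroblasts, tendon and bone, was close to absent from both libraries. Col1a1, which encodes its alpha1 chain, was at 0.0292 CPM in WT and 0.342 CPM in KO Pax7+ cells, and had 0 UMIs in WT Myog+ and WT muscle-rich cells (limits of 0.0922 and 0.0592 CPM, the level of 3 counts). Col1a2, the alpha2 chain, was higher in WT than in KO in each myogenic class, at 3.03 against 0.840 CPM in Pax7+ cells, 3.93 against 0.389 CPM in Myog+ cells and 5.53 against 0.161 CPM in muscle-rich cells. All of these lie under the 10 CPM used for counting a difference. The KO Crabp1/Dcn+ cells held 54 UMIs of Col1a1 (6.73 CPM) and 0 of Col1a2, a limit of 0.374 CPM.

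**Figure D2:**
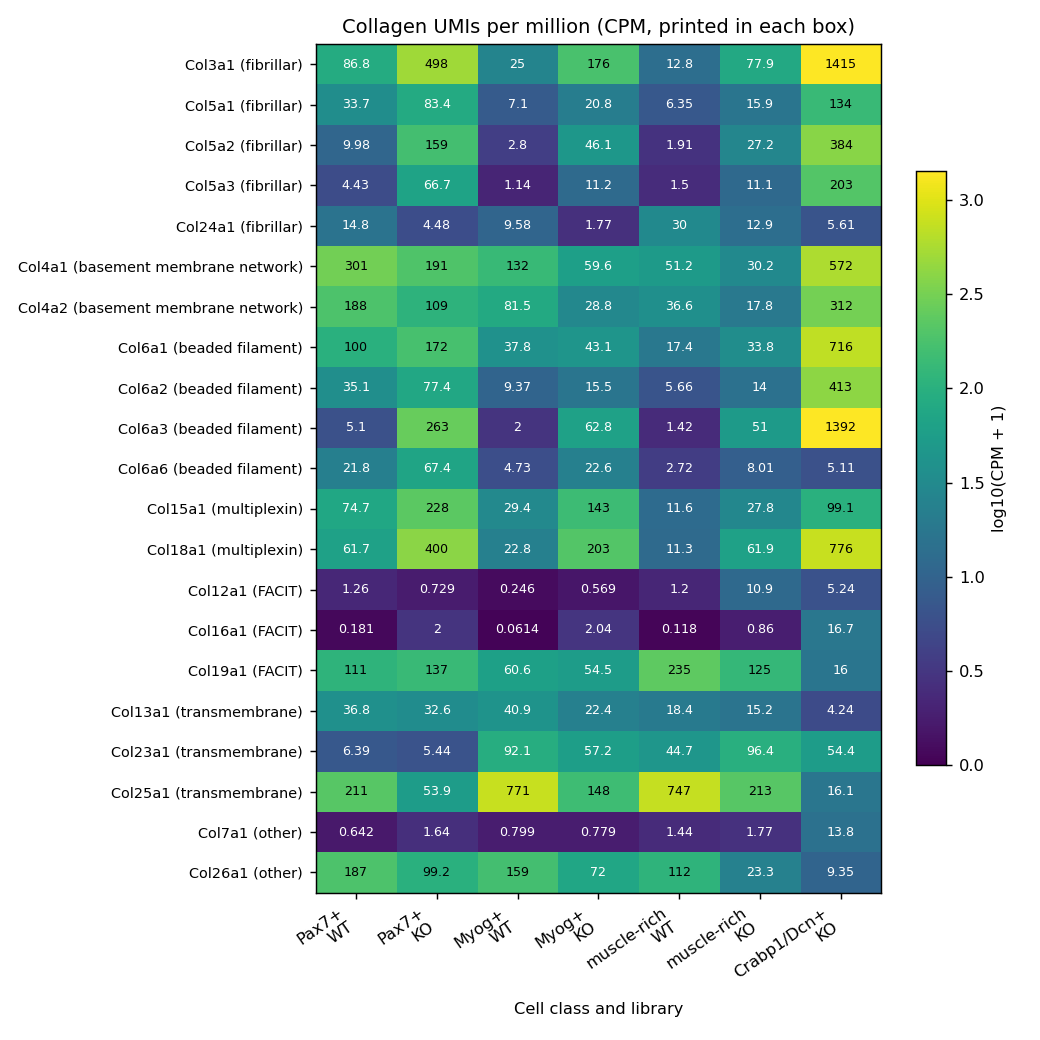
Level in CPM of the 21 collagens that reached 10 CPM (rows, with their class) by cell class and library (columns). The number in each box is the CPM and the colour its log10(CPM + 1), and Col3a1 and Col6a3 reach 1415 and 1392 CPM in KO Crabp1/Dcn+ cells.

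In Pax7+ cells, 9 of the 17 collagens tested were higher in KO and 2 were lower. Over all 8694 genes tested, 13.8% were higher and 4.04% lower. With TMM scaling, which shifts the median log2 ratio of all genes from 0.09 to -0.12, 8 collagens were higher and 3 lower, and the genes counted went from 1204 higher and 351 lower to 921 and 558. The higher ones were the type III and type V chains Col3a1, Col5a1, Col5a2 and Col5a3, the type VI chains Col6a2, Col6a3 and Col6a6, and the multiplexins Col15a1 and Col18a1. The lower ones were the fibrillar Col24a1 and the transmembrane Col25a1.

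Among fibrillar collagens, Col3a1, the chain of type III collagen found in soft and distensible tissue, was at 86.8 CPM in WT and 498 CPM in KO Pax7+ cells, 5.74-fold higher (5.63 to 5.84). The alpha2 chain of type V collagen, which regulates the width of fibrils, was higher too: Col5a2 was at 9.98 CPM in WT and 159 CPM in KO, a ratio of 16.0 (15.2 to 16.8). Col5a3, the alpha3 chain, was at 4.43 and 66.7 CPM, a ratio of 15.1. Col5a1, whose product is the constant chain of type V collagen, differed less, at 33.7 and 83.4 CPM (2.47-fold). There were thus 3.38 Col5a1 UMIs per Col5a2 UMI in WT Pax7+ cells (3.20 to 3.57) and 0.524 in KO (0.512 to 0.536), so the balance between partner chains shifted between the libraries as well as their amount. Col24a1, a fibrillar collagen of bone and eye, went the other way, at 14.8 CPM in WT and 4.48 CPM in KO, a ratio of 0.303 (0.277 to 0.331).

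The largest ratio among the 17 collagens belonged to the third chain of type VI collagen. Type VI filaments are built from alpha1, alpha2 and alpha3-like chains, and Col6a3, Col6a5 and Col6a6 encode chains of the alpha3 kind. Col6a3 was at 5.10 CPM in WT and 263 CPM in KO Pax7+ cells, a ratio of 51.5 (48.2 to 55.2). Its partners differed far less: Col6a1 was at 100.2 and 172 CPM (1.71-fold, within the 2-fold limit) and Col6a2 at 35.1 and 77.4 CPM (2.21-fold, and 0.94 on the log2 scale with TMM scaling, under the limit). Col6a6 was at 21.8 and 67.4 CPM, a ratio of 3.09 (2.98 to 3.22). In WT Pax7+ cells there were 0.0509 Col6a3 UMIs and 0.217 Col6a6 UMIs per Col6a1 UMI, and in KO 1.53 and 0.393. Cells with UMIs of Col6a1, Col6a2 and Col6a3 at once were 335 of 4409 in WT (exact interval 6.83 to 8.42%) and 2244 of 3119 in KO (70.3 to 73.5%).

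The difference in Col6a3 was spread over the KO Pax7+ cells. The 10% of cells with the most Col6a3 held 30.0% of its UMIs there, but 51.7% in KO Myog+ and 88.7% in KO muscle-rich cells. After each cell was thinned to 5000 UMIs, 2.34% of WT and 61.8% of KO Pax7+ cells held a Col6a3 UMI, and without thinning 11.1% and 94.7%, at median depths of 36220 and 39342 UMIs. The lowest thinned share in any KO class was 8.85%, in muscle-rich cells at a median depth of 49554 UMIs. Col3a1 showed the same breadth: its median was 0.611 UMIs per 10000 in WT Pax7+ cells (10th to 90th percentile 0 to 1.94) and 4.48 in KO (1.91 to 8.94), and the 25th percentile of KO cells, 2.99, lay above the 90th of WT cells.

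**Figure D3:**
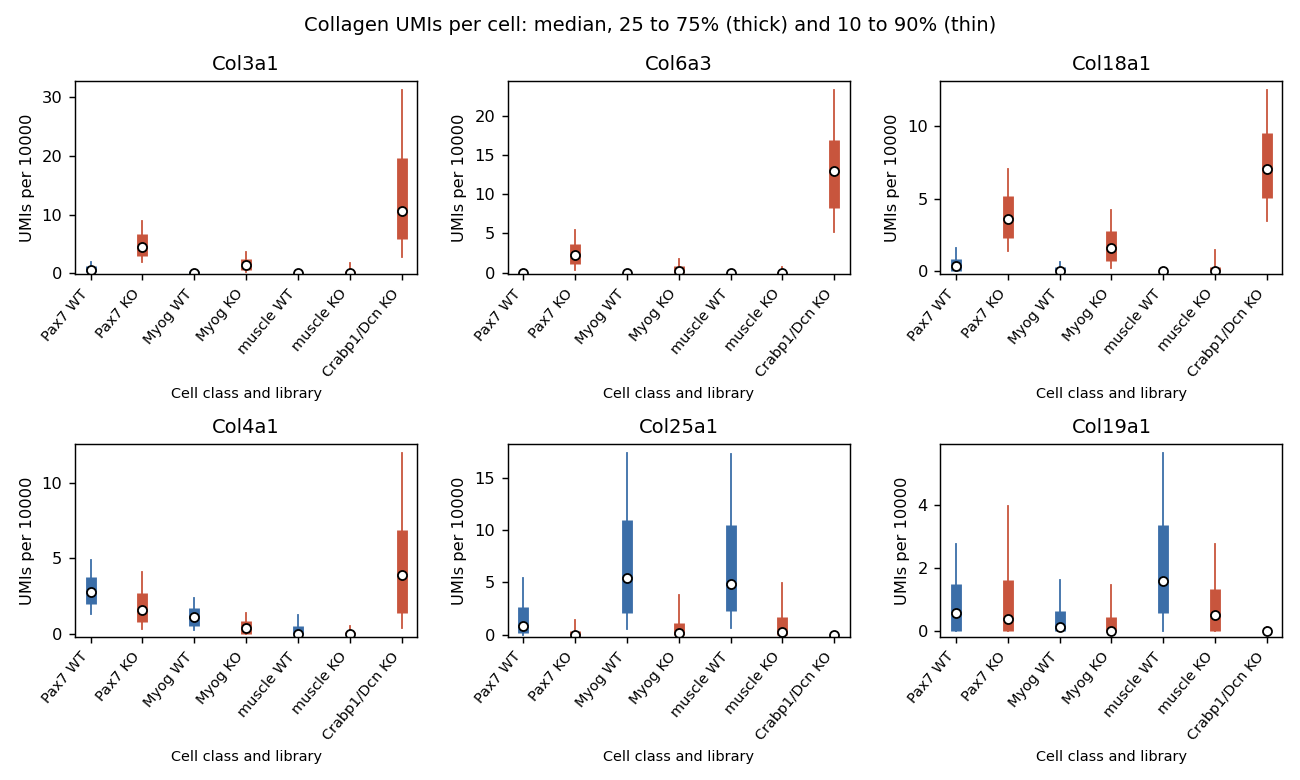
UMIs per 10000 in single cells (vertical axis) for 6 collagens by cell class and library (horizontal axis, WT blue, KO red). Points are medians over cells, thick bars the 25th to 75th and thin bars the 10th to 90th percentile. Col3a1, Col6a3 and Col18a1 lie higher in KO Pax7+ than in WT Pax7+ cells, and Col25a1 lower.

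Both multiplexins were higher in KO. Col18a1, whose product carries the endostatin fragment, was at 61.7 CPM in WT and 400 CPM in KO Pax7+ cells, a ratio of 6.49 (6.35 to 6.62). Col15a1, whose product stabilises muscle and vessel basement membranes, was at 74.7 and 228 CPM, a ratio of 3.06 (3.00 to 3.12).

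The basement membrane chains did not follow the multiplexins. Col4a1 and Col4a2, which share a promoter region and form the most widespread type IV network, were lower in KO by less than 2-fold. Col4a1 was at 301 CPM in WT and 191 CPM in KO (ratio 0.634, 0.625 to 0.644) and Col4a2 at 188 and 109 CPM (0.582, 0.571 to 0.594). Their proportion to each other moved little, from 1.60 Col4a1 UMIs per Col4a2 UMI in WT to 1.74 in KO. Over every class of at least 50 cells this proportion ran from 1.40 to 2.07.

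Col25a1, a transmembrane collagen of muscle cells known for its part in the growth of motor nerves into muscle, was the other main difference. It was at 211 CPM in WT and 53.9 CPM in KO Pax7+ cells, a ratio of 0.255 (0.249 to 0.262). Col13a1, the transmembrane collagen of the neuromuscular junction, was at 36.8 and 32.6 CPM (0.886), and Col23a1, a transmembrane collagen shed from the cell surface, at 6.39 and 5.44 CPM, under the minimum. Col26a1, an unclassed collagen of developing gonads, was at 187 and 99.2 CPM, a ratio of 0.532 that passes the 2-fold limit with TMM scaling (log2 ratio -1.11). Col19a1, a FACIT collagen needed for muscle differentiation in the oesophagus, was at 111 and 137 CPM (1.24). The remaining named FACIT and unclassed collagens, Col12a1, Col16a1 and Col7a1, were each at 2.00 CPM or less in both libraries.

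**Figure D4:**
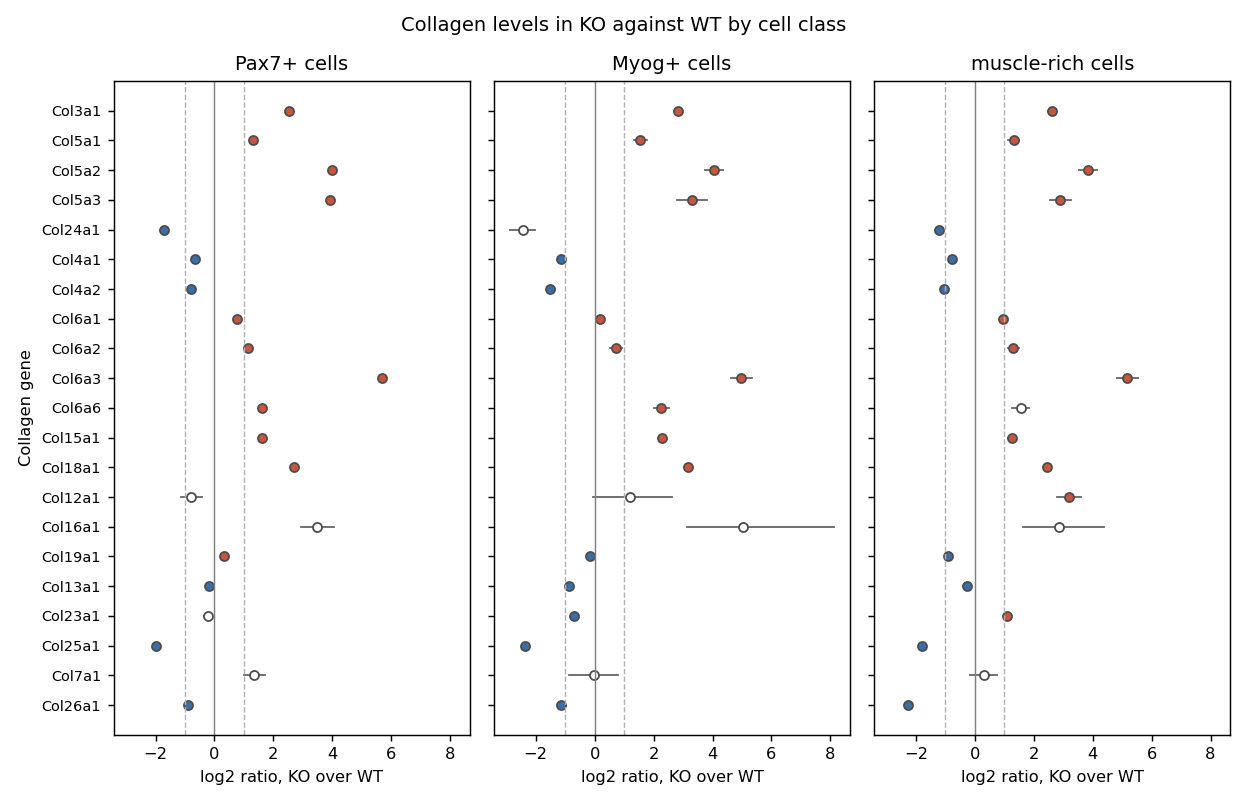
Log2 ratio of KO over WT (horizontal axis) for the 21 named collagens (vertical axis) in Pax7+, Myog+ and muscle-rich cells. Lines are exact 95% counting intervals, dashed lines the 2-fold limits, open points have under 10 CPM in both libraries, red is higher and blue lower in KO. Col6a3 lies at 5.69 in Pax7+ cells and Col25a1 at -1.97.

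The upstream sequences of a pair of collagens higher in KO and a pair higher in differentiating cells are shown, since the genotype concerns a factor of the bHLH family, which binds E-boxes (CANNTG, the same letters on both strands). RefSeq of build GRCm38.p6, another build than the GRCm39 named for the files, held an entry for 35 of the 44 collagens, 3 of them with 2 entries. Each sequence is the 250 bases before the annotated start on the gene's strand, with E-boxes in capitals. Col3a1 (ENSMUSG00000026043) lies on the plus strand at chr1:45311288-45311537, Col6a3 (ENSMUSG00000048126) on the minus strand at chr1:90843972-90844221, Col23a1 on the plus strand at chr11:51289670-51289919 and Col25a1 (ENSMUSG00000058897) on the plus strand at chr3:130180595-130180844.
Col3a1: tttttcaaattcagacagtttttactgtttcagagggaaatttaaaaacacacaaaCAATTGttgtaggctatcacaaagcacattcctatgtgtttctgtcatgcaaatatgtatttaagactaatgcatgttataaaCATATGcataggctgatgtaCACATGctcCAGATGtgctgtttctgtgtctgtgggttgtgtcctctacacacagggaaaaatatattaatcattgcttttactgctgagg
Col6a3: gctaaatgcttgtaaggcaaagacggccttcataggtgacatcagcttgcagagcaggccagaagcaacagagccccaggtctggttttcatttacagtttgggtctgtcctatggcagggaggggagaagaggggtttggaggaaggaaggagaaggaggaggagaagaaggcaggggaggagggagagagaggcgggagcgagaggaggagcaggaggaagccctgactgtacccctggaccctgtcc
Col23a1: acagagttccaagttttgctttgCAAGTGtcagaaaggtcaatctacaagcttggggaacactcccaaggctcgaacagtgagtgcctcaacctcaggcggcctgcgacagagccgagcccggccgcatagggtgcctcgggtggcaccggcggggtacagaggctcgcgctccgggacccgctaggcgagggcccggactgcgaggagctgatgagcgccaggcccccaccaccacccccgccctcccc
Col25a1: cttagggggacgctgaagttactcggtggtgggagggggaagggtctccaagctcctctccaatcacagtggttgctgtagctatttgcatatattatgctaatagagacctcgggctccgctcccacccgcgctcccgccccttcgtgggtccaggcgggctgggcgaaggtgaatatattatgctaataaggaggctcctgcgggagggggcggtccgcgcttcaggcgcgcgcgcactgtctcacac
Col3a1 has 4 E-boxes in this window, Col23a1 has 1, and Col6a3 and Col25a1 have 0. Of the 22862 promoters with a single entry, 66.3% hold at least 1 CANNTG in the same window, and 12.7% hold CAGCTG, which none of these 4 does. A match of letters is a description and not a binding site. The start RefSeq gives for Col25a1 did not coincide with the start of a GENCODE M21 transcript.

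Genes that act on collagens were taken from 6 lists with 71 members. In Pax7+ cells 16 of the 22 chain modification and folding genes reached 10 CPM in a library, and 6 were higher in KO and 0 lower, beside the 13.8% and 4.04% of all genes given above for this class, which hold for the other lists too. Examples are Plod1, a lysyl hydroxylase (3.26 CPM in WT, 28.0 CPM in KO, 8.57-fold), Fkbp10, a collagen chaperone (4.71 and 30.2 CPM, 6.40-fold), and P3h4, a partner of lysyl hydroxylation (7.50 and 47.4 CPM, 6.32-fold). The median log2 ratio of the list was 0.70, beside 0.09 over all genes tested.

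Of the 8 genes for removal of propeptides, 4 were tested and 3 were higher. Adamts2, the N-proteinase of fibrillar procollagens, was at 0.269 CPM in WT and 10.8 CPM in KO (40.4-fold, 30.1 to 55.4), Pcolce, an enhancer of the C-proteinase, at 23.4 and 93.1 CPM (3.98-fold), and Bmp1, the C-proteinase itself, at 9.33 and 23.0 CPM (2.46-fold). Lox, which crosslinks collagen, was the 1 crosslinking gene of 5 that was tested, at 2.88 and 10.9 CPM (3.79-fold). Mrc2, the endocytic collagen receptor, was the 1 higher of 4 receptors tested, at 3.57 and 35.6 CPM (9.97-fold).

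Genes of collagen breakdown and its inhibitors were higher in 4 of the 5 tested. Timp1, an inhibitor of matrix metalloproteinases, was at 22.3 CPM in WT and 248 CPM in KO (11.1-fold), and the membrane-type metalloproteinases Mmp14 and Mmp16 were at 10.3 and 68.6 CPM (6.65-fold) and at 0.707 and 19.0 CPM (26.8-fold). Proteases and an inhibitor of them were thus higher in the same library. Of 5 collagen-binding genes tested, 3 were higher and 1 lower. The lower one was Postn, the matricellular protein periostin, at 12.2 CPM in WT and 0.446 CPM in KO (0.0367), and the examples of the others are Prelp (0.672 and 11.0 CPM, 16.4-fold) and Thbs1 (4.99 and 23.9 CPM, 4.79-fold). In Myog+ cells, where 11.4% of all genes were higher and 4.34% lower, 6 of 15 chain modification genes tested, 3 of 4 receptors, 4 of 4 breakdown genes and 2 of 4 collagen-binding genes were higher in KO and none of these lower. In muscle-rich cells, where 11.1% of all genes were higher and 5.02% lower, the counts were 5 higher and 1 lower of 16, 0 of 3, 2 of 2, and 2 higher and 1 lower of 4.

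Markers of other cell types and states differed between the libraries as well. In Pax7+ cells the sum of 12 fibroblast markers other than collagens was 379 CPM for WT and 666 CPM for KO, of which Prrx1, a mesenchymal factor, gave 298 and 510 CPM. In WT Pax7+ cells 4 of the 12 had 0 UMIs, and in KO none did. The smooth muscle and pericyte markers had a summed level of 773 CPM in WT against 193 CPM in KO, of which Acta2 gave 474 and 125 CPM, and the cartilage and bone markers had 40.4 and 69.5 CPM. The markers of myocyte commitment had 630 and 2971 CPM, of which Cdkn1c, a cell cycle inhibitor, gave 473 and 2788 CPM. Slpi, a secreted protease inhibitor at 12586 CPM in the KO Crabp1/Dcn+ cells, was at 47.8 CPM in KO Pax7+ cells. If all of this Slpi came from such cells, RNA carried with it would make up 0.165% of Col15a1, 1.08% of Col3a1 and 2.01% of Col6a3 in KO Pax7+ cells. These percentages are no upper bound. Spp1, at 43245 CPM in the KO Crabp1/Dcn+ cells, was at 630 CPM in KO Pax7+ cells, a larger proportion than that of Slpi. Without the cells that had 2 or more Slpi UMIs per 10000, an alternative chosen after the data were seen, the level of Col6a3 was 4.98 CPM for WT and 260 CPM for KO Pax7+ cells. The part of the other markers in the collagen values was not tested.

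Mki67 and Top2a, genes of dividing cells, did not differ in 1 direction between the libraries. A smaller share of KO than of WT Pax7+ cells passed a cut on their sum. In Pax7+ cells Mki67 was at 184 CPM in WT and 236 CPM in KO, and Top2a at 495 and 460 CPM. Pax7+ cells with at least 1 UMI of Mki67 and Top2a together per 10000 were 3842 of 4409 in WT and 2132 of 3119 in KO. In those cells Col6a3 was at 4.23 CPM in WT and 253 CPM in KO, and in the others at 13.7 and 293 CPM. Col3a1 was at 82.2 and 481 CPM in the first and at 131 and 549 CPM in the others, so the KO library was higher in both. Col24a1 was at 15.2 and 3.86 CPM in the first and at 10.9 and 6.31 CPM in the others, where the ratio no longer reached 2-fold.

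In Myog+ cells, 8 of 17 collagens tested were higher in KO (11.4% of all 8232 genes) and 4 lower (4.34%). Col6a3 was at 2.00 CPM in WT and 62.8 CPM in KO (31.5-fold, 24.6 to 40.9), Col5a2 at 2.80 and 46.1 CPM (16.5-fold), and Col3a1 7.03-fold higher, at 176 CPM in KO. The multiplexins were again higher, Col18a1 at 22.8 and 203 CPM (8.89-fold) and Col15a1 at 29.4 and 143 CPM (4.86-fold). Also higher were Col5a1, Col5a3 and Col6a6, at ratios of 2.93, 9.83 and 4.77. The type IV chains passed the limit in this class: Col4a1 was at 132 CPM in WT and 59.6 CPM in KO (0.451, 0.427 to 0.475) and Col4a2 at 81.5 and 28.8 CPM (0.354, 0.328 to 0.381). Col25a1 was at 771 and 148 CPM (0.193, 0.187 to 0.199) and Col26a1 at 159 and 72.0 CPM (0.453).

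In muscle-rich cells, 10 of 18 collagens tested were higher in KO (11.1% of all 7884 genes) and 4 lower (5.02%). The lower ones were Col25a1, at 747 CPM in WT and 213 CPM in KO (0.286), Col26a1, at 112 and 23.3 CPM (0.208), Col24a1, at 30.0 and 12.9 CPM (0.431), and Col4a2, at 36.6 and 17.8 CPM (0.488). Among the higher ones, Col6a3 was at 1.42 and 51.0 CPM (35.9-fold), Col5a2 at 1.91 and 27.2 CPM (14.2-fold), Col3a1 at 12.8 and 77.9 CPM (6.08-fold) and Col18a1 at 11.3 and 61.9 CPM (5.46-fold). These ratios rest on few of the cells. The tenth of KO muscle-rich cells with the most Col3a1 held 79.1% of its UMIs, against 24.7% in KO Pax7+ cells, and the median muscle-rich cell had 0.

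Doublet scores were high in the same class: 144 of 1160 KO (12.4%) and 151 of 1230 WT (12.3%) muscle-rich cells were among the 6% of cells with the highest Scrublet score of their library, against 4.42% and 3.67% of Pax7+ cells. Without those cells, Col3a1 was at 4.54 CPM in WT and 22.4 CPM in KO muscle-rich cells, Col18a1 at 3.62 and 21.9 CPM, Col6a3 at 0.620 and 12.8 CPM and Col4a1 at 25.2 and 8.33 CPM. The levels were thus more than 2-fold lower, with KO still above WT in the first 3, and 6 of the collagens were higher in place of 10. Col25a1 changed little, at 829 and 231 CPM. Slpi was at 144 CPM in KO muscle-rich cells, and at the proportions of the Crabp1/Dcn+ cells RNA carried with it would make up 14.3% of Col18a1, 20.8% of Col3a1 and 31.2% of Col6a3 there. The part of doublets in these levels was not tested further.

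Most matrix collagens were lower in differentiating cells of both libraries, and the transmembrane collagens Col25a1 and Col23a1 were higher. The transmembrane collagen Col13a1 was lower in muscle-rich cells, by close to 2-fold. Compared with Pax7+ cells of the same library, 9 of 15 collagens tested were lower in WT Myog+ cells (6.09% of all genes) and 2 higher (5.3%), and in KO 11 of 17 were lower (10.2%) and 2 higher (5.42%). In muscle-rich cells 10 of 15 were lower in WT (27.2% of all genes) and 4 higher (12.2%), and in KO 14 of 19 lower (30.6%) and 4 higher (11.2%).

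Col25a1 and Col23a1 were the collagens higher in Myog+ cells of both libraries. Col23a1 was at 6.39 CPM in WT Pax7+, 92.1 CPM in Myog+ and 44.7 CPM in muscle-rich cells, and in KO at 5.44, 57.2 and 96.4 CPM. Against Pax7+ cells this was 14.4-fold higher in WT Myog+ cells (13.4 to 15.5) and 10.5-fold in KO (9.64 to 11.4). Col25a1 was 3.65-fold higher in Myog+ than in Pax7+ cells in WT and 2.76-fold in KO, and 3.54-fold and 3.96-fold higher in muscle-rich cells. Its level was lower in KO than in WT in each of the 3 myogenic classes.

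In muscle-rich cells Col24a1 was also higher than in Pax7+ cells, 2.03-fold in WT and 2.89-fold in KO. Col19a1 was at 111 CPM in Pax7+, 60.6 CPM in Myog+ and 235 CPM in muscle-rich cells of WT, where the last step from Pax7+ was 2.12-fold, and at 137, 54.5 and 125 CPM in KO. Col12a1, a FACIT collagen of tendon and muscle connective tissue, was at 10.9 CPM in KO muscle-rich cells and at 1.26 CPM or less in the Pax7+ and Myog+ cells of both libraries and in WT muscle-rich cells. Col13a1 was at 18.4 CPM in WT and 15.2 CPM in KO muscle-rich cells, beside 36.8 and 32.6 CPM in Pax7+ cells. Its ratio was 0.4999 in WT, at the 2-fold limit, and 0.468 in KO. TMM scaling raises the ratios of muscle-rich over Pax7+ cells in both libraries, and Col13a1 then lies within the limit.

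**Figure D5:**
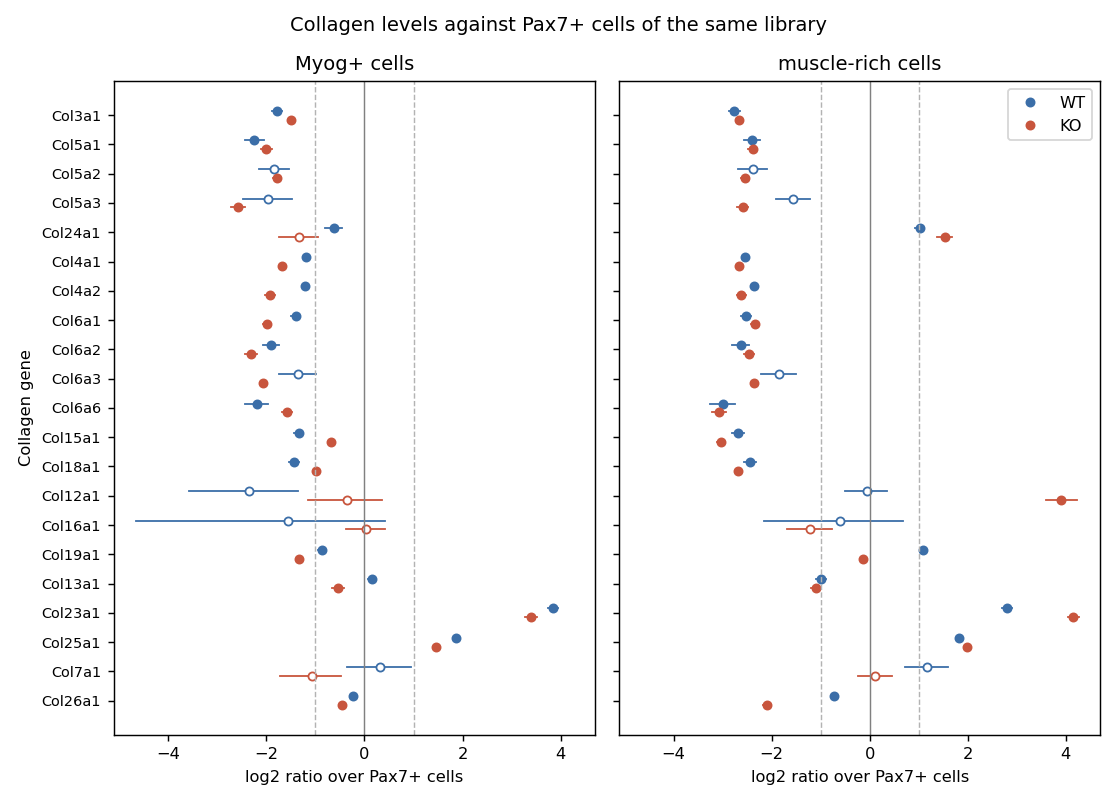
Log2 ratio of Myog+ (left) and muscle-rich cells (right) over Pax7+ cells of the same library (horizontal axis) for the 21 named collagens (vertical axis), WT in blue and KO in red. Lines are exact 95% counting intervals, dashed lines 2-fold, and open points have under 10 CPM in both classes. Col23a1 and Col25a1 lie to the right in both panels and most matrix collagens to the left.

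The collagens with a lower level in muscle-rich than in Pax7+ cells did not all stand at 1 proportion of their Pax7+ level. Over 10 matrix collagens (Col3a1, Col4a1, Col4a2, Col5a1, Col5a2, Col6a1, Col6a2, Col6a3, Col15a1 and Col18a1) the ratio ran from 0.122 to 0.197 in KO with a median of 0.167, and from 0.148 to 0.278 in WT with a median of 0.179. These 10 were chosen after their values were known. The ratios include the cells with the highest doublet scores. Without those cells Col3a1, Col4a1, Col6a3 and Col18a1 were more than 2-fold lower in muscle-rich cells, as given above. The proportions are thus not settled for muscle-rich cells free of doublets. Outside them, Col6a6 was at 0.125 in WT and 0.119 in KO, Col5a3 at 0.339 and 0.166, Col26a1 at 0.601 and 0.235, and Col13a1 at 0.4999 and 0.468. In WT, Col5a2, Col5a3 and Col6a3, which had the 0.278, were under 10 CPM in both classes and so were not tested. Col26a1 was within the 2-fold limit in WT. In KO Myog+ cells the same 10 genes ran from 0.201 for Col6a2 to 0.626 for Col15a1. Fewer collagen-making cells within a class and less collagen RNA per cell cannot be told apart from such sums. Genes of dividing progenitors were low in muscle-rich cells too: Mki67 was at 0.113 of its Pax7+ level in WT and 0.109 in KO, Top2a at 0.119 and 0.115, and Pax7, a gate gene, at 0.115 and 0.0986. Their part in the collagen values was not tested. In WT, the UMIs of Col3a1 and Col4a1 in muscle-rich cells also lay mostly in the tenth of cells with the most, at 83.1% and 61.6%, beside 33.9% for Col25a1.

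The KO Crabp1/Dcn+ cells are named by their gate alone, since some fibroblast markers that the gate did not use, such as Lum and Thy1, stayed under 10 CPM. Crabp1, at 4002 CPM, and Dcn, at 489 CPM, are the gate genes, so their level was set by the selection. The secreted phosphoprotein Spp1 was at 43245 CPM, beside 630 CPM in KO Pax7+ cells, and the mesenchymal factor Twist2 at 402 CPM, beside 2.22 CPM. Lum was at 8.10 CPM, Pdgfra at 22.3 CPM and Thy1 at 2.74 CPM. These were also higher than in KO Pax7+ cells, at 0.00744, 1.81 and 0.729 CPM. Type I collagen was as low as given above. The 12 fibroblast markers other than collagens summed to 1950 CPM, the gate gene Dcn included, 10 of them at 1 CPM or more and 1 at 0 UMIs. Of the 174 KO cells that passed this gate before the muscle-rich cells were set apart, 21 also passed the Pax7 gate.

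Compared with KO Pax7+ cells, 11 of 19 collagens tested were higher in these cells (10.5% of all 9007 genes) and 6 lower (15.3%). Chains 1 to 3 of type VI were all higher: Col6a1 was at 716 CPM (4.17-fold), Col6a2 at 413 CPM (5.34-fold) and Col6a3 at 1392 CPM (5.29-fold), while Col6a6 was at 5.11 CPM, 0.0759 of the Pax7+ level. Col3a1 was at 1415 CPM (2.84-fold, 2.79 to 2.90), Col5a3 at 203 CPM (3.05-fold) and Col5a2 at 384 CPM (2.41-fold). The type IV chains Col4a1 and Col4a2 were at 572 and 312 CPM (3.00-fold and 2.85-fold). Col18a1, at 776 CPM, and Col5a1, at 134 CPM, were 1.94-fold and 1.61-fold higher, within the limit.

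Also higher were Col23a1 at 54.4 CPM (9.98-fold), Col16a1, a FACIT collagen, at 16.7 CPM (8.35-fold), and Col7a1, the anchoring fibril collagen of skin, at 13.8 CPM (8.42-fold). Among the lower collagens, Col25a1 was at 16.1 CPM (0.299), Col19a1 at 16.0 CPM (0.116), Col26a1 at 9.35 CPM (0.0942), Col13a1 at 4.24 CPM (0.130) and Col15a1 at 99.1 CPM (0.434), with Col6a6 the sixth. In single cells, Col6a3 had a median of 13.0 UMIs per 10000 (10th to 90th percentile 5.19 to 23.2) and Col3a1 of 10.6 (2.78 to 31.2). Beside the same 10.5% and 15.3% of all genes, those that act on collagens were higher in 5 of 19 tested for chain modification, 3 of 6 for propeptide removal, 3 of 4 for crosslinking, 2 of 4 receptors, 4 of 6 for breakdown and 4 of 7 collagen-binding genes, 1 of the last being the gate gene Dcn. In crosslinking, receptors and collagen binding 1 gene each was lower.

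Over all kept cells 9 of 18 collagens tested were higher in KO (13.4% of all genes) and 3 lower (3.37%). Pax7+ cells held 59.7% of the KO Col6a3 UMIs, the 162 Crabp1/Dcn+ cells 18.8%, and cells in no class 13.1%. In WT, Pax7+ cells held 48.6% of the Col6a3 UMIs and the 845 cells in no class 39.2%. For Col25a1 the largest holders were the muscle-rich cells, with 36.1% of its UMIs in WT and 46.9% in KO. Of the UMIs of all genes, Pax7+ cells held 61.4% in WT and 53.1% in KO, and muscle-rich cells 18.2% and 22.1%. Cells in no class held 8.72% and 8.44%, and the KO Crabp1/Dcn+ cells 3.17%.

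Among the 23 collagens under 10 CPM, Col20a1, a FACIT collagen, was the highest, from 3.72 CPM in WT Pax7+ to 8.73 CPM in KO Crabp1/Dcn+ cells, with intervals of WT and KO that overlapped in each myogenic class. Col17a1, a transmembrane collagen of epithelia, was at 0.215 CPM in WT and 5.81 CPM in KO Myog+ cells, and Col6a5 at 0.140 CPM in WT and 1.73 CPM in KO Pax7+ cells. Col27a1, a fibrillar collagen of cartilage, was at 4.58 CPM in WT Myog+ cells, with its interval from 3.87 to 5.37 CPM, above that of KO (0.856 to 1.63 CPM). Col4a4 and Col4a5, chains of specialised basement membranes, reached 2.96 and 2.11 CPM, Col28a1 2.12 CPM, Col8a1 1.05 CPM and Col11a2 1.04 CPM. The 12 under 1 CPM were Col2a1, Col4a3, Col4a6, Col6a4, Col8a2, Col9a1, Col9a2, Col9a3, Col10a1, Col11a1, Col14a1 and Col22a1, which include the cartilage collagens of types II, IX, X and XI.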

How the data were processed

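Single-cell 3' RNA libraries of 1 WT and 1 KO clone were analysed. For each barcode and gene the authors deposited the raw UMI count, unnormalized. Per the file headers the matrices were written by Cell Ranger 7.2.0. The submitters' processing notes list GRCm39 and Seurat but not what each was used for, and the annotation release and whether intronic reads were counted are not given in the sources used here. The files hold 8191 WT barcodes with 285232252 UMIs and 7670 KO barcodes with 282739488 UMIs.

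Cells with at least 1000 genes and at most 15% mitochondrial UMIs were kept, and Scrublet calls (scanpy 1.11.5, expected rate 0.06) were removed, which left 7316 WT and 5782 KO cells. Counts were summed per class and library and scaled to a total of 1000000. No p-value is given, since cells are not replicates. The ratio step was tested on data simulated with counting error only, so that test does not cover the spread between clones or libraries. Alternatives were TMM scaling (edgeR 4.0.16), the mean over cells, other filters and gates, and a minimum of 1 CPM. Named collagens had at least 10 CPM in a class of at least 50 cells, and each other list gives up to 3 members with the largest ratios in Pax7+ cells. The members, lists and alternatives were chosen with earlier results of these data known.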

Additional observations from a re-analysis of the deposited data

Results flagged for a closer look

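In all, 3 collagens had effects of opposite sign in parts of the data, and none of these differences was tested, since each genotype has 1 library. Col12a1 had a log2 ratio of KO over WT of -0.78 in Pax7+ cells, where it was at 1.26 CPM in WT and 0.729 CPM in KO, and of 3.19 in muscle-rich cells, where it was at 10.9 CPM in KO. Without the 6% of cells with the highest doublet scores it was at 1.14 and 11.6 CPM in muscle-rich cells.

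Col23a1 had log2 ratios of -0.23 in Pax7+ cells and -0.69 in Myog+ cells, and of 1.11 in muscle-rich cells, the last being 1.00 with TMM scaling. With each gate applied on its own the ratio was 0.03 in Pax7+ and 0.43 in Myog+ cells, so its sign there depends on how cells that pass several gates are placed.

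Col19a1 in muscle-rich over Pax7+ cells had a log2 ratio of 1.08 in WT and -0.13 in KO. With TMM scaling these were 1.45 and 0.33, so the sign of the KO value depends on the scaling.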

How the results depend on the processing

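Of 188 counts of collagens past the 2-fold limit recomputed under the alternatives, 182 stayed within 1.5 times the reported count and 6 did not. With a minimum of 1 CPM, the collagens higher in KO went from 8 to 13 and the lower ones from 4 to 7 in Myog+ cells, and the higher ones over all kept cells from 9 to 14, because more genes were counted. Without the 6% of cells with the highest doublet scores, those higher in muscle-rich cells went from 10 to 6. With gate thresholds halved, those higher in WT muscle-rich than in Pax7+ cells went from 4 to 2. In Pax7+ cells with Mki67 and Top2a under 1 per 10000, a subset chosen after the data were seen, those lower in KO went from 2 to 1. The cause was not tested for these 3. Of 1972 log2 ratios of named collagens, 688 moved beyond their counting interval, and no ratio of a collagen past the limit changed sign. The alternatives with at least 20000 UMIs per cell, and with under 2 Slpi UMIs per 10000, were also chosen after the data were seen. No paired analysis was possible because each genotype has 1 library. Depth limits what can be said of the 12 collagens under 1 CPM.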

Other observations

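The 5 WT cells in the Crabp1/Dcn+ gate held 211184 UMIs, and none had a barcode shared with the KO library. Collagens were at 4300 CPM in them. Col6a3 had 84 UMIs there (398 CPM, 317 to 492). Col18a1 was at 710 CPM (601 to 833), Col3a1 at 563 CPM (467 to 674) and Col5a2 at 251 CPM (188 to 328), while Col6a6 had 1 UMI and Col1a2 had 3. Of these 5 cells, 3 also passed the Pax7 gate.

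WT cells in no class, which are not a cell type, had Col6a3 at 29.0 CPM (26.9 to 31.2), beside 5.10 CPM in WT Pax7+ cells, and Col5a3 at 14.5 CPM beside 4.43 CPM. Col4a1, at 279 CPM, and Col25a1, at 236 CPM, were closer to their levels in WT Pax7+ cells. In KO, cells in no class had Col6a3 at 363 CPM and Col3a1 at 617 CPM, beside 263 and 498 CPM in Pax7+ cells. Genes high in the KO Crabp1/Dcn+ cells were raised there too. Slpi was at 1529 CPM, Spp1 at 6117 CPM and Twist2 at 32.9 CPM, beside 47.8, 630 and 2.22 CPM in Pax7+ cells. Thy1 was lower, at 0.281 beside 0.729 CPM, and Lum had 0 UMIs. The part of such cells in the collagen values was not tested.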
